A study of Mus musculus with 9 samples.

Results

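The 52 genes described here act in the last part of the cell cycle, the G2 phase and mitosis. They were chosen by name, with earlier results of these data known. All 52 were found by gene symbol among the 26146 genes of the deposited table, and all 52 were among the 11536 genes tested, having at least 1 FPKM (fragments per kilobase of transcript, scaled to the fragments of the library) in at least 3 of 9 libraries. They were measured by poly(A) RNA sequencing in RAW264.7 cells, a mouse macrophage-like line that came from a virus-induced tumour and keeps dividing in culture. The study asked how an extract used in Traditional Chinese Medicine alters the response of these cells to lipopolysaccharide (LPS), a cell wall component of Gram-negative bacteria.

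The 3 groups have 3 libraries each, all of 1 cell line. Normal libraries come from cells with no stated treatment. The samples with LPS in their title are tied by 1 part of their label to the table columns ET and by another to the name M. For the samples titled LPS+Extract it is the other way round. The treated groups are therefore named ET and M after the table columns. Read through the columns, ET received LPS and M received LPS with the extract, and read through the library names the treatments are exchanged. The mean of both treated groups against Normal has the same value in either case, and M against ET keeps its values while the names of the treatments change places. The labels used here give no plant, dose, exposure time or passage. They do not say that replicates were separate cultures, so that p-values measure the spread between these libraries, which may be technical.

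Entry into mitosis is driven by the kinase CDK1 bound to cyclin B, which the CDC25 phosphatases switch on and the WEE1 and MYT1 kinases hold back. The chromosomes are then condensed, attached to the spindle through their kinetochores under the watch of the spindle checkpoint, and separated once the ubiquitin ligase APC/C with CDC20 has marked securin and cyclin B for destruction. Transcription of most of these genes peaks in G2, under NF-Y bound to CCAAT boxes and under MuvB complexes with B-MYB and FOXM1 bound to the cell cycle genes homology region (CHR). In resting or arrested cells the same CHR elements are bound by the repressive DREAM complex. LPS is known to slow the division of macrophages that grow on colony-stimulating factor.

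The start regions of 5 of these genes are shown because they hold the CHR and CCAAT motifs in different combinations. Each window reaches from 250 bases before to 50 bases after the RefSeq transcription start (GRCm38.p6) and is printed 5′ to 3′ on the strand of the gene. Capitals mark every match to the CHR letters TTTGAA or TTCGAA and to CCAAT, on either strand, so that TTCAAA and ATTGG are matches on the opposite strand. Ccnb2 encodes cyclin B2 (chr9:70421505-70421804, minus strand), Plk1 the mitotic kinase PLK1 (chr7:122159185-122159484, plus strand), and Mki67 the chromosome surface protein Ki-67 (chr7:135716330-135716629, minus strand). Cks2 encodes a small subunit that binds CDK1 (chr13:51644982-51645281, plus strand) and Nusap1 a spindle protein (chr2:119618048-119618347, plus strand).
Ccnb2: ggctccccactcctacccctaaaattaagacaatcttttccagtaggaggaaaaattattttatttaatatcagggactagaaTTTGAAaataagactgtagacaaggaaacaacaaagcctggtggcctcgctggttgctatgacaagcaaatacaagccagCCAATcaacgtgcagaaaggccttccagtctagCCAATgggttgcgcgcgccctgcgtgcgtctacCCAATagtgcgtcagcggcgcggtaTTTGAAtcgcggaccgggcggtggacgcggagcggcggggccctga
Plk1: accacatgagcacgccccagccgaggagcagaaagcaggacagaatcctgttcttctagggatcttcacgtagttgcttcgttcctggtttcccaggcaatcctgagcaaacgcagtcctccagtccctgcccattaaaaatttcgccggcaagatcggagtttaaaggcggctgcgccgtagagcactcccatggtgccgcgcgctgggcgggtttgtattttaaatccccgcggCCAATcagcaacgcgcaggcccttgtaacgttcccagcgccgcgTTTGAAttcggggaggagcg
Mki67: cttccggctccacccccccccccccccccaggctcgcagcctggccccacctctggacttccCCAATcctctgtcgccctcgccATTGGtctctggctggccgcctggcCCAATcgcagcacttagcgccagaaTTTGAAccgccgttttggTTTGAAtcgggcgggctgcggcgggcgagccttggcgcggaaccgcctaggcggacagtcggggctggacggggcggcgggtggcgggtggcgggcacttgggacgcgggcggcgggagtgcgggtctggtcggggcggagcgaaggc
Cks2: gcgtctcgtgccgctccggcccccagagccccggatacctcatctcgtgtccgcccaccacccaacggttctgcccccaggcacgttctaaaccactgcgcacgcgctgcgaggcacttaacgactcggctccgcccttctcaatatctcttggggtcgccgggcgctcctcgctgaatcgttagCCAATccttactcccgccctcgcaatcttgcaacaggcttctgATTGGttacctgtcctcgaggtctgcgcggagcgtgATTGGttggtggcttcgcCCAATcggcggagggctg
Nusap1: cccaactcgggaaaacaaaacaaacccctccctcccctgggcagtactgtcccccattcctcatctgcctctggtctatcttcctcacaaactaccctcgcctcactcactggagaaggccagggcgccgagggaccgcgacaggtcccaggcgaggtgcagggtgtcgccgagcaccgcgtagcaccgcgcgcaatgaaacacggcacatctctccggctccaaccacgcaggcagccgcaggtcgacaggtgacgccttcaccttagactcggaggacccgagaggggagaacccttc

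The Ccnb2 window held 2 CHR and 3 CCAAT matches, that of Plk1 1 and 1, and that of Mki67 2 and 3. The Cks2 window held 4 CCAAT matches and no CHR match, and the Nusap1 window neither motif. Of the 52 genes, 43 had a start region in the RefSeq table. A CHR match was found in 33 of the 43 (76.7%), against 21.7% of all 27025 genes with a window of this length and 16.8% of the 8267 tested genes with one. CCAAT was found in 32 (74.4%), against 41.1% and 43.6%, and both motifs in 29 (67.4%), against 8.61% and 7.03%. In 21 genes a window held 2 or more CCAAT matches, and 1 CHR match overlapped a CCAAT match. A match is a run of letters and not a shown binding site.

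The libraries held 55039858 to 76242718 counts. The 52 genes together took 0.858 to 0.871% of all counts in the Normal libraries. Their share was 0.527 to 0.572% for ET and 0.528 to 0.546% for M. Their summed level was 1686 to 1709 FPKM for Normal, 1148 to 1201 for ET and 1129 to 1150 for M, so that every treated library lay below every Normal library. Across all tested genes the leading principal component, with 91.5% of the variance, set Normal apart from both treated groups, and the next, with 2.87%, separated ET from M, where replicate 3 of ET (-5.48) lay between ET replicates 1 and 2 (-12.7 and -12.6) and M (9.45 to 10.4). Of 10 macrophage markers 9 reached 1 FPKM in at least 3 libraries, with sums of 2040 to 2150 FPKM for Normal, 2500 to 2680 for ET and 2430 to 2480 for M, and Mertk was at 0 in all but 1 library. The markers moved both ways. Cd14, the LPS co-receptor gene, contributed most to the higher sums, with 195 to 206 FPKM for Normal and 910 to 1030 in treated libraries. Adgre1 (14.8 to 15.9 and 50.7 to 61.5), Itgam (24.5 to 29.9 and 74.5 to 99.3) and Cd68 (357 to 372 and 444 to 502) were also higher in every treated library. Csf1r (314 to 331 and 172 to 194), Lyz2 (953 to 1040 and 539 to 697), Spi1 (98.3 to 102.9 and 68.4 to 78.2) and Fcgr1 (51.1 to 51.5 and 42.7 to 49.4) were lower in every treated library, and Ptprc overlapped. Of 5 granulocyte markers 4 were in the table and S100a8 alone reached 1 FPKM, with list sums of 0 to 0.129 FPKM for Normal, 37.8 to 46.9 for ET and 41.4 to 47.5 for M. S100a9, Mpo and Elane lay at 0 to 0.462 FPKM, whereas S100a8 lay at 37.7 to 47.5 FPKM in treated libraries. All 6 fibroblast markers were in the table and summed to 0.0273 to 0.0731 FPKM for Normal, 3.07 to 3.57 for ET and 4.13 to 6.13 for M, nearly all of it Lum, with collagen genes at or near 0. Of 6 epithelial and endothelial markers 3 were in the table (0.768 to 0.953, 2.78 to 3.24 and 3.20 to 3.55 FPKM), and of 7 lymphocyte markers 4 (0.0442 to 0.268, 0.596 to 1.38 and 0.562 to 0.725 FPKM). The part of these other transcripts in the results was not tested.

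Treated cells had less RNA of most mitotic genes than Normal cells. In the mean of ET and M against Normal, 45 of the 52 were lower, 2 were higher and 5 were not called (edgeR quasi-likelihood test, Benjamini-Hochberg adjusted p under 0.05). Of all genes tested in this comparison, 36.8% were called lower and 36.8% higher. The median log2 change of the 52 genes was -0.53, with a range of -1.34 to 0.42, and that of all tested genes was -0.013. In bulk RNA, fewer dividing cells and less of these transcripts in each dividing cell cannot be told apart. Log2 changes come from counts scaled by TMM factors (1.04 to 1.05 in Normal and 0.971 to 0.987 in the treated libraries), whereas the FPKM values carry no such factor and stand a little lower in treated libraries than the log2 changes do. With total counts alone the median of all genes moved to -0.099 and that of the 52 genes to -0.61.

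**Figure D1:**
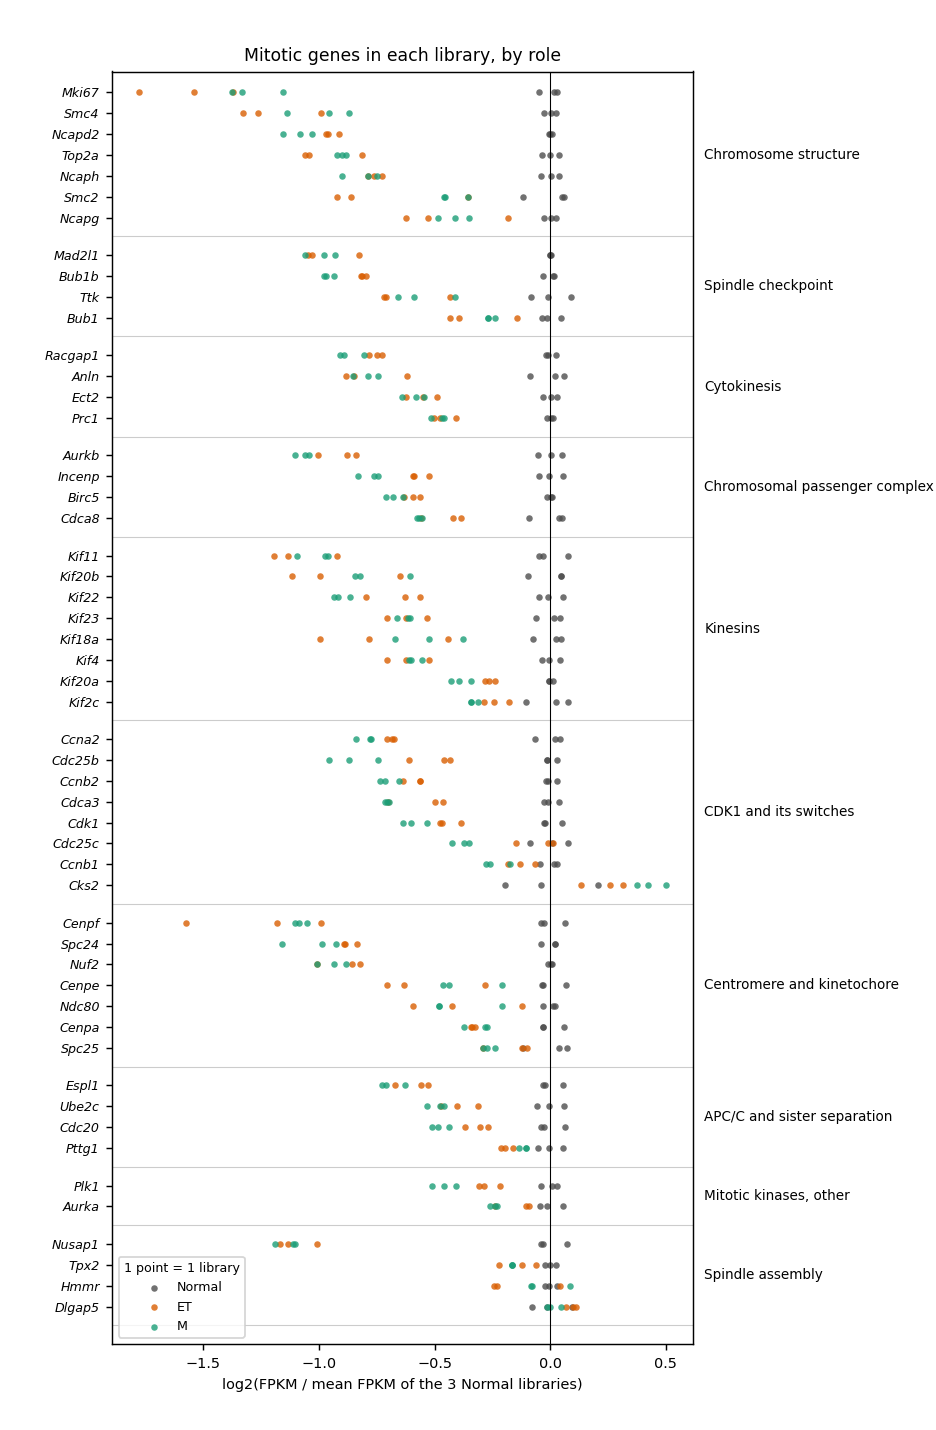
FPKM of each of the 52 genes in each of 9 libraries, as the log2 ratio to the mean of the 3 Normal libraries, grouped by role. Each point is 1 library (grey Normal, orange ET, green M). In 47 of 52 genes all 6 treated libraries lay below all 3 Normal libraries, and no gene had all 6 above.

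By these unscaled FPKM values, 47 genes had all treated libraries below all Normal ones and none had all above. With TMM scaling, 43 of 52 had all treated libraries below, where 33.1% of all tested genes did, and none had all above, where 32.4% did. By role, all 7 genes of chromosome structure fell, with a median of -0.85, as did all 4 of the spindle checkpoint (-0.65), all 4 of cytokinesis (-0.60), all 4 of the chromosomal passenger complex (-0.57) and all 8 kinesins (-0.54). Of 8 genes for CDK1 and its switches 6 fell and 1 rose (-0.49), of 7 centromere and kinetochore genes 6 fell (-0.36), and of 4 genes for the APC/C and sister separation 3 fell (-0.34). The kinases Plk1 and Aurka both fell (-0.20), and of 4 spindle assembly genes 1 fell and 1 rose (-0.033). These role medians were not tested against each other.

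Chromosome structure held the deepest fall. Mki67 (chromosome 7, 135689784 to 135716361 on GRCm38), whose protein coats mitotic chromosomes and serves as a marker of dividing cells, had 75.2, 75.8 and 71.9 FPKM in the Normal libraries, 25.6, 21.7 and 28.7 in ET and 29.5, 28.7 and 33.3 in M. The highest treated library lay well below the lowest Normal one. The log2 change was -1.34 ± 0.071 (SE), edgeR adjusted p = 2.39e-09 (Benjamini-Hochberg), a level 60.4% lower. Smc4, an ATPase subunit of condensin, had 45.9, 45.1 and 44.3 FPKM in the Normal libraries, 18.8, 17.98 and 22.7 in ET and 23.3, 20.5 and 24.7 in M, a level 50.1% lower in the treated mean of the fit. Ncapd2, another condensin subunit, had the smallest standard error of the group and fell by 0.94. Top2a, the topoisomerase that untangles sister chromatids, fell by 0.85, and Ncaph, the condensin subunit that bridges the ATPases, by 0.70. The smallest changes were in Smc2, the partner of Smc4, at -0.47 and in Ncapg, a further condensin subunit. Ncapg had 17.6, 18.3 and 18.01 FPKM in the Normal libraries, 11.7, 12.5 and 15.8 in ET and 14.1, 12.8 and 13.5 in M, with ET replicate 3 the highest treated library (log2 change -0.34 ± 0.075 (SE), edgeR adjusted p = 0.00121, Benjamini-Hochberg).

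The spindle checkpoint holds back separation until every kinetochore is attached. Mad2l1, which binds and inhibits CDC20, had 13.4, 13.4 and 13.4 FPKM in the Normal libraries, 6.49, 6.58 and 7.57 in ET and 6.81, 6.43 and 7.04 in M. The Normal libraries were nearly equal and no treated library was above 7.57 FPKM (log2 change -0.90 ± 0.049 (SE), edgeR adjusted p = 3.33e-09, Benjamini-Hochberg). Bub1b encodes BUBR1, the other direct inhibitor of CDC20, and had 74.2, 76.6 and 76.8 FPKM in the Normal libraries, 43.7, 43.2 and 42.97 in ET and 38.5, 39.6 and 38.8 in M. Its groups did not overlap and M lay below ET (log2 change against Normal -0.80 ± 0.027 (SE), edgeR adjusted p = 2.45e-11, Benjamini-Hochberg). The checkpoint kinases had smaller fitted changes. Ttk, which starts checkpoint signalling, stood at -0.50, and Bub1, which recruits checkpoint proteins to kinetochores, had 34.1, 35.6 and 33.7 FPKM in the Normal libraries, 25.5, 26.3 and 31.2 in ET and 29.2, 28.6 and 28.6 in M. All 6 treated libraries of Bub1 lay below the Normal ones, with ET replicate 3 closest to them (log2 change -0.21 ± 0.055 (SE), edgeR adjusted p = 0.00451, Benjamini-Hochberg).

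The chromosomal passenger complex corrects faulty attachments and guides cytokinesis. Its kinase gene Aurkb had 51.3, 53.4 and 55.2 FPKM in the Normal libraries, 29.8, 26.6 and 29.03 in ET and 24.8, 25.6 and 25.8 in M, roughly level within each group and lowest in M (log2 change -0.90 ± 0.040 (SE), edgeR adjusted p = 3.82e-10, Benjamini-Hochberg). The scaffold gene Incenp had 57.01, 55.4 and 59.4 FPKM in the Normal libraries, 37.9, 39.8 and 38.01 in ET and 32.2, 33.7 and 34.1 in M. Its 3 groups did not overlap, in the order Normal, ET, M (treated log2 change -0.59 ± 0.033 (SE), edgeR adjusted p = 3.60e-09, Benjamini-Hochberg). Birc5, which encodes survivin, fell by 0.55. Cdca8, for the borealin subunit, changed least with 21.1, 23.2 and 23.03 FPKM in the Normal libraries, 17.2, 16.8 and 15.2 in ET and 15.1, 15.3 and 15.1 in M (log2 change -0.43 ± 0.043 (SE), edgeR adjusted p = 1.23e-06, Benjamini-Hochberg).

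Among genes of centromeres and kinetochores Cenpf, for a large protein of the outer kinetochore, changed most and had 6.49, 6.89 and 6.42 FPKM in the Normal libraries, 2.92, 2.22 and 3.32 in ET and 3.11, 3.07 and 3.19 in M. ET replicate 2 was the lowest library and the treated values stayed under all Normal ones (log2 change -1.07 ± 0.089 (SE), edgeR adjusted p = 2.05e-07, Benjamini-Hochberg). The 4 subunits of the NDC80 complex, which grips the microtubule, had unlike fitted changes. Spc24 and Nuf2 fell by 0.86 and 0.83, Ndc80 by 0.29, and Spc25 was not called. Spc25 had 11.5, 12.7 and 13.1 FPKM in the Normal libraries, 11.6, 10.2 and 11.4 in ET and 10.2, 10.3 and 10.5 in M, with ET replicate 1 just above the lowest Normal library and the others below it (log2 change -0.14 ± 0.059 (SE), edgeR adjusted p = 0.0547, Benjamini-Hochberg). Cenpe, the kinetochore motor, fell by 0.36, and Cenpa, the histone H3 variant that marks the centromere, by 0.24.

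All 8 kinesins, the motors of the spindle, were called lower. Kif11, which pushes the spindle poles apart, had 23.9, 26.1 and 24.2 FPKM in the Normal libraries, 10.8, 11.3 and 13.04 in ET and 12.6, 11.6 and 12.7 in M, with all treated libraries far below Normal (log2 change -0.96 ± 0.055 (SE), edgeR adjusted p = 5.58e-09, Benjamini-Hochberg). Kif20b, a motor of late cytokinesis, fell by 0.75, the chromosome-bound Kif22 by 0.70, Kif23 of the centralspindlin complex by 0.54, Kif18a, which dampens chromosome movement, by 0.54 and the chromokinesin Kif4 by 0.52. Kif20a, which brings the passenger complex to the midzone, fell by 0.24. Kif2c, which dismantles microtubule ends at centromeres, had 17.9, 20.3 and 19.5 FPKM in the Normal libraries, 16.97, 15.8 and 16.2 in ET and 15.1, 15.5 and 15.2 in M. Its groups did not overlap but lay close together (log2 change -0.20 ± 0.043 (SE), edgeR adjusted p = 0.000926, Benjamini-Hochberg).

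The 4 cytokinesis genes fell by 0.39 to 0.73 on the log2 scale. Racgap1, the partner of Kif23 in centralspindlin, had 24.5, 24.3 and 25.1 FPKM in the Normal libraries, 14.6, 14.9 and 14.3 in ET and 14.1, 13.1 and 13.2 in M, with a clear gap between Normal and treated libraries (log2 change -0.73 ± 0.033 (SE), edgeR adjusted p = 5.15e-10, Benjamini-Hochberg). Anln, which organises the contractile ring, fell by 0.70, and Ect2, the exchange factor that turns on RhoA at the furrow, by 0.49. Prc1, which bundles midzone microtubules, changed least and had 16.9, 17.2 and 17.1 FPKM in the Normal libraries, 12.3, 12.1 and 12.9 in ET and 11.9, 12.4 and 12.4 in M (log2 change -0.39 ± 0.032 (SE), edgeR adjusted p = 1.82e-07, Benjamini-Hochberg).

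CDK1 and its switches held a rise beside the falls. Ccna2, for cyclin A2, had 72.5, 68.3 and 73.5 FPKM in the Normal libraries, 43.9, 44.4 and 44.7 in ET and 41.6, 39.9 and 41.8 in M, with no overlap of any 2 groups (treated log2 change -0.66 ± 0.032 (SE), edgeR adjusted p = 1.03e-09, Benjamini-Hochberg). Cdc25b, the phosphatase that starts CDK1 activation, fell by 0.59, Ccnb2, the cyclin B2 gene, by 0.56, Cdca3, whose protein takes part in the degradation of WEE1, by 0.55, and the kinase gene Cdk1 itself by 0.43. The cyclin B1 gene, Ccnb1 (chromosome 13, 100778650 to 100786570), stayed much closer to Normal, with 53.9, 51.1 and 53.4 FPKM in the Normal libraries, 50.5, 46.5 and 48.2 in ET and 46.8, 43.6 and 44.1 in M. By unscaled FPKM the treated libraries lay just below the Normal ones. With TMM scaling ET overlapped Normal, and the gene was called lower (log2 change -0.10 ± 0.038 (SE), edgeR adjusted p = 0.0335, Benjamini-Hochberg). This call ended without any 1 of Normal replicates 1 and 3, ET replicates 2 and 3 and M replicates 2 and 3, with edgeR adjusted p of 0.177, 0.117, 0.068, 0.0581, 0.0721 and 0.0884 in that order (Benjamini-Hochberg), and also with relative log expression factors in place of TMM (edgeR adjusted p = 0.0612, Benjamini-Hochberg). Paralogs thus stood apart in their fitted changes, Ccnb1 at -0.10 and Ccnb2 at -0.56, and likewise Aurka at -0.11 and Aurkb at -0.90. The differences between paralogs were not tested.

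Cks2 (chromosome 13, 51645232 to 51650660), whose product docks CDK1 on its substrates, was the gene that went most strongly against the rest. It had 53.2, 63.1 and 47.8 FPKM in the Normal libraries, 68.1, 59.9 and 65.3 in ET and 71.02, 77.4 and 73.3 in M. The M libraries lay above all others, the Normal libraries spread more widely than for most genes, and ET overlapped Normal (log2 change 0.42 ± 0.079 (SE), edgeR adjusted p = 0.000404, Benjamini-Hochberg). The call was kept in all 19 alternatives, with log2 changes of 0.33 to 0.54. The transcript is short, at 692 bases, and 235 bases of it match the annotated gene Gm15452 at 100% identity and Gm19945 at 96.2%, so that its reads could be split. Cks2 had 2014 to 3578 counts per library, and those 2 genes at most 367 and 36.

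The mitotic kinases outside the complexes had small fitted changes. Plk1, which acts from CDK1 activation to cytokinesis, had 69.6, 67.3 and 70.5 FPKM in the Normal libraries, 56.8, 59.5 and 55.8 in ET and 48.4, 52.1 and 50.2 in M. Its groups were ordered Normal, ET, M without overlap (treated log2 change -0.28 ± 0.034 (SE), edgeR adjusted p = 8.06e-06, Benjamini-Hochberg). Aurka, which matures the spindle poles, had 60.8, 59.5 and 63.8 FPKM in the Normal libraries, 57.6, 57.02 and 52.02 in ET and 51.3, 52.3 and 51.9 in M. Its treated FPKM values were all below Normal, by little, but with TMM scaling ET overlapped Normal. It was called lower (log2 change -0.11 ± 0.038 (SE), edgeR adjusted p = 0.0176, Benjamini-Hochberg). The call ended without Normal replicate 1 (edgeR adjusted p = 0.0604, Benjamini-Hochberg) or Normal replicate 3 (edgeR adjusted p = 0.135, Benjamini-Hochberg).

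Genes that act at the exit from metaphase fell in part. Espl1 encodes separase, the protease that cuts cohesin, and had 16.2, 16.3 and 17.1 FPKM in the Normal libraries, 11.2, 11.5 and 10.4 in ET and 9.98, 10.7 and 10.1 in M, with all treated libraries below Normal (log2 change -0.55 ± 0.038 (SE), edgeR adjusted p = 3.54e-08, Benjamini-Hochberg). Ube2c, an E2 enzyme of the APC/C, fell by 0.36, and Cdc20, its activator, had 84.5, 83.6 and 89.9 FPKM in the Normal libraries, 71.3, 69.7 and 66.6 in ET and 60.4, 61.5 and 63.5 in M and fell by 0.31. Pttg1, for securin, the inhibitor of separase, had 20.2, 21.1 and 19.6 FPKM in the Normal libraries, 18.1, 17.5 and 17.7 in ET and 18.8, 18.5 and 18.9 in M. Its FPKM lay below Normal in every treated library, but with TMM scaling it was not called (log2 change -0.070 ± 0.046 (SE), edgeR adjusted p = 0.182, Benjamini-Hochberg).

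Spindle assembly was the most mixed role. Nusap1, which bundles microtubules near chromosomes, had 21.7, 23.4 and 21.8 FPKM in the Normal libraries, 10.2, 11.1 and 9.93 in ET and 10.4, 9.80 and 10.3 in M, a drop to about the same level in all treated libraries (log2 change -1.04 ± 0.045 (SE), edgeR adjusted p = 3.25e-10, Benjamini-Hochberg). Hmmr, a microtubule-binding spindle protein, had 20.1, 20.5 and 19.8 FPKM in the Normal libraries, 17.01, 17.1 and 20.7 in ET and 21.3, 18.98 and 19.04 in M. Its treated libraries ranged from below to above Normal (log2 change 0.00049 ± 0.063 (SE), edgeR adjusted p = 0.995, Benjamini-Hochberg). Tpx2, the activator of AURKA, was not called at -0.067. Dlgap5, which stabilises kinetochore fibres, was called higher but had overlapping groups, with 8.40, 8.79 and 9.47 FPKM in the Normal libraries, 9.51, 9.31 and 9.60 in ET and 8.88, 8.79 and 9.18 in M (log2 change 0.13 ± 0.042 (SE), edgeR adjusted p = 0.0119, Benjamini-Hochberg). Its rise depended on the scaling, since total counts alone gave 0.048 (edgeR adjusted p = 0.314, Benjamini-Hochberg), and it also ended without Normal replicate 1 (edgeR adjusted p = 0.059, Benjamini-Hochberg).

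The start regions were set beside these changes. The 33 genes with a CHR match had a median log2 change of -0.50 (-1.34 to 0.0005) and the 10 without one -0.55 (-1.04 to 0.42). These classes were not tested against each other, and a window without these exact letters does not mean a gene without a CHR. The Mad2l1 window, which held no match, ends at 66535270, before the annotated gene start at 66535390. The windows of Pttg1, without a match, and of Kif2c, Cdca8, Cdca3 and Kif4, with a CHR match, lay past the annotated start. That of Kif2c spans 117178723 to 117179022 on the minus strand, where the gene starts at 117182639. Of the sequences above with both motifs, Mki67 fell by 1.34, Ccnb2 by 0.56 and Plk1 by 0.28. Nusap1 with neither fell by 1.04, and Cks2 with CCAAT alone stood at 0.42.

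Genes of the same pathways outside the 52 were counted from further lists of genes by role. In this comparison, the treated mean against Normal, 36.8% of all tested genes were lower and 36.8% higher. Of 27 other spindle and division genes 26 were lower and none was higher (median log2 change -0.55). Pimreg, a regulator of the metaphase to anaphase step, had 33.2 ± 0.43 FPKM in Normal, 12.1 ± 0.36 in ET and 10.5 ± 0.69 in M (SD, n = 3), and Kif15, a spindle motor that works beside Kif11, had 9.62 ± 0.50 FPKM in Normal, 3.72 ± 0.70 in ET and 4.34 ± 0.032 in M. Their log2 changes were -1.48 and -1.18. Of 32 other kinetochore and checkpoint genes 25 were lower and 3 higher (median -0.39). Cenpm and Knl1 fell by 1.26 and 0.88. Zwint and Zw10 were higher, whereas Zwilch and Kntc1, whose proteins form a complex with that of Zw10, were lower (log2 changes -0.37 and -0.34) and were named after their values had been seen. Zwint had 19.8 ± 0.53 FPKM in Normal, 39.2 ± 1.4 in ET and 41.6 ± 1.6 in M, and Zw10 37.2 ± 0.71 FPKM in Normal, 53.8 ± 1.1 in ET and 51.7 ± 1.4 in M, without overlap between treated and Normal libraries (log2 changes 1.11 and 0.59).

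All 3 condensin II genes were lower (median -0.48), with Ncapd3 at -0.71 and Ncaph2 at -0.48. Of 13 cohesin genes 11 were lower and 2 higher (median -0.44), with the acetyltransferase Esco2 at -0.93 and the ring subunit Smc1a at -0.72, and with Esco1 at 0.30 and the release factor Wapl at 0.24. Of 16 APC/C subunits and partners 8 were lower and 3 higher (median -0.064), with Anapc2 at -0.61, Cdc23 at -0.39, Ube2s at 0.25 and Anapc4 at 0.21. For the APC/C the median stood near that of all tested genes.

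Of 11 other regulators of CDK1 8 were lower and 2 higher (median -0.34). The kinases that restrain CDK1 had the largest falls of that list. Wee1 had 18.5 ± 0.33 FPKM in Normal, 6.89 ± 0.39 in ET and 6.12 ± 0.49 in M, and Pkmyt1, which encodes MYT1, had 10.9 ± 0.43 FPKM in Normal, 4.74 ± 0.17 in ET and 4.10 ± 0.37 in M (log2 changes -1.43 and -1.22), beside falls in their opponent Cdc25b and in Cdk1. Gtse1 and Ensa were called higher, by 0.14 each, with overlapping FPKM values. Of 20 genes for the transcription of mitotic genes 15 were lower and 1 higher (median -0.37). E2f2 and Tfdp2, a factor for S phase genes and a partner of E2F factors, both fell by 1.53, and E2f5, a mostly repressive E2F, was higher by 0.72.

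Of 40 replication genes 29 were lower and 5 higher (median -0.36). Tk1, thymidine kinase, and Gins3, of the replicative helicase, fell by 1.35 and 1.20. Ccne1, for cyclin E1 of the G1 to S transition, had 18.9 ± 1.1 FPKM in Normal, 35.7 ± 2.0 in ET and 32.4 ± 0.58 in M, and Rrm2, of ribonucleotide reductase, 81.95 ± 0.80 FPKM in Normal, 111 ± 3.7 in ET and 95.7 ± 0.86 in M (log2 changes 0.93 and 0.41). Of 15 CDK inhibitors and growth arrest genes 11 were tested, of which 7 were higher and 4 lower (median 0.56). Of all tested genes 36.8% were higher and 36.8% lower, and the count of lower genes in this list lay near that share. Cdkn1a, which encodes the CDK inhibitor p21, had 30.6 ± 1.8 FPKM in Normal, 103 ± 3.4 in ET and 104 ± 6.2 in M, and Gadd45b, a stress sensor that can inhibit CDK1, had 1.87 ± 0.22 FPKM in Normal, 22.6 ± 0.60 in ET and 25.95 ± 1.0 in M (log2 changes 1.84 and 3.76). Cdkn1b, for p27, and Btg2, an antiproliferative gene, fell by 0.92 and 0.94.

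**Figure D2:**
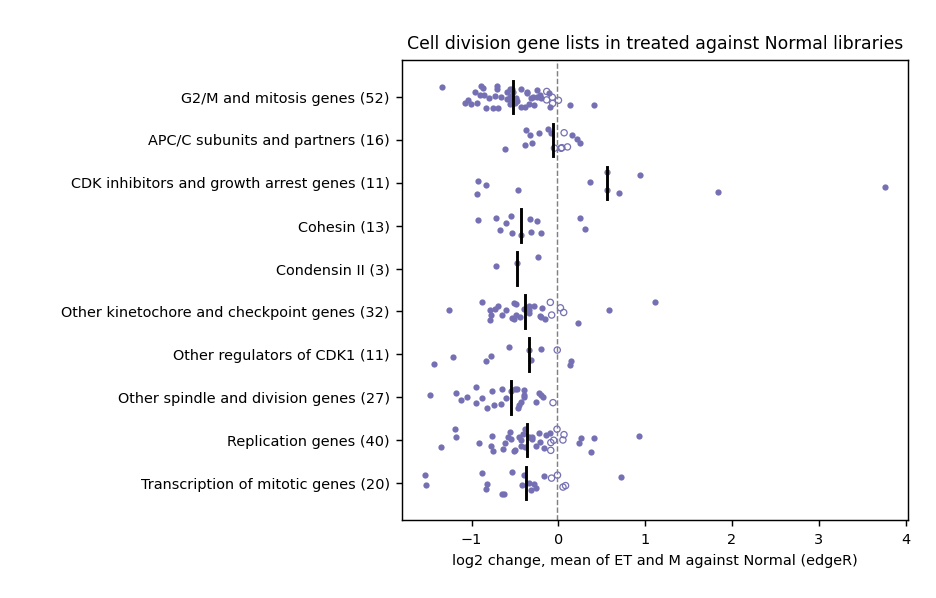
Log2 change in the mean of ET and M against Normal (edgeR) for the 52 mitotic genes and 9 other lists of cell division genes, with the number tested in parentheses. Each point is 1 gene, filled where the adjusted p was under 0.05. The black bar is the list median and the dashed line the median of all 11536 tested genes. Only CDK inhibitors and growth arrest genes had a median above 0 (0.56).

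Each treated group was then set against Normal, which is the effect of LPS in one group and of LPS with extract in the other. Both comparisons use the same 3 Normal libraries. In ET 43 of the 52 genes were lower, 2 higher and 7 not called, where 35.2% of all genes were lower and 35% higher. In M 47 were lower, 1 higher and 4 not called, where 34.5% were lower and 35.5% higher. When single libraries were left out, 43 to 46 of the 52 were called in either direction in ET and 43 to 48 in M. Of all tested genes 32.2 to 35.2% were then lower and 33.5 to 35.1% higher in ET. In M these shares were 32 to 34.8% and 33.8 to 36.5%. The median log2 change of the 52 genes was -0.50 in each treated group. By edgeR at an unadjusted p under 0.05 the counts were 43 lower and 2 higher in ET and 47 lower and 1 higher in M. The share of all tested genes was not counted at this setting. Mki67 changed most in both, by -1.48 ± 0.086 (SE) in ET and by -1.20 ± 0.086 (SE) in M. Cks2 was higher in both, by 0.31 ± 0.090 (SE) and 0.52 ± 0.090 (SE). Cdc25c stood at 0.027 ± 0.070 (SE), edgeR adjusted p = 0.744 in ET and at -0.30 ± 0.070 (SE), edgeR adjusted p = 0.00228 in M (Benjamini-Hochberg).

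The direct comparison of M with ET asks what the extract adds to LPS, with a sign that depends on which reading of the labels holds. It called 7 of the 52 genes lower in M and none higher (edgeR quasi-likelihood test, Benjamini-Hochberg), where 4.12% of all tested genes were lower and 4.97% higher. At an unadjusted edgeR p under 0.05 there were 16 lower and 4 higher, a setting at which the share of all tested genes was not counted. DESeq2 called 11 lower and 1 higher after adjustment, where 6.9% of all tested genes were lower and 7.83% higher. The changes were small, with a median of -0.040 and a range of -0.34 to 0.28. In 18 genes all M libraries lay below all ET libraries after TMM scaling and in 3 all lay above, where 14.4% and 14.3% of all tested genes did so.

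The mitotic phosphatases differed most. Cdc25b (chromosome 2, 131186949 to 131198497) had 21.1, 21.1 and 21.8 FPKM in the Normal libraries, 15.8, 13.99 and 15.5 in ET and 10.99, 12.8 and 11.7 in M. Every M library was below every ET library and both groups were below Normal (M against ET -0.34 ± 0.062 (SE), edgeR adjusted p = 0.00526, Benjamini-Hochberg). Cdc25c, which acts in the loop that completes CDK1 activation, had 5.46, 5.72 and 5.10 FPKM in the Normal libraries, 5.47, 4.89 and 5.39 in ET and 4.05, 4.25 and 4.19 in M. Here ET overlapped Normal and M alone lay below both (M against ET -0.32 ± 0.070 (SE), edgeR adjusted p = 0.0149, Benjamini-Hochberg). Exons of Cdc25c overlap those of Gm3550 on the opposite strand over 12.7% of their length, and reads of such overlaps cannot be told apart where the strand setting of counting is unknown.

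The other 5 genes differed by less. Incenp, with the values given above, stood at -0.20 ± 0.039 (SE), edgeR adjusted p = 0.00807, Benjamini-Hochberg, in M against ET. Kif22 had 17.4, 17.8 and 18.7 FPKM in the Normal libraries, 12.2, 10.3 and 11.6 in ET and 9.39, 9.52 and 9.86 in M, with M below ET in every library (M against ET -0.24 ± 0.059 (SE), edgeR adjusted p = 0.0279, Benjamini-Hochberg). Plk1 stood at -0.18 ± 0.040 (SE), edgeR adjusted p = 0.0174, and Bub1b at -0.14 ± 0.032 (SE), edgeR adjusted p = 0.0174 (both Benjamini-Hochberg). Cdc20 stood at -0.15 ± 0.041 (SE), edgeR adjusted p = 0.0401 (Benjamini-Hochberg). All 7 genes had M below ET without overlap and 6 of them were called lower in both treated groups, so that M lay further from Normal than ET did, with Cdc25c lower in M alone.

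The calls for Cdc25b and Incenp were kept in all 20 alternatives. Without ET replicate 1 the calls of Bub1b, Cdc25c, Cdc20 and Kif22 ended (edgeR adjusted p = 0.053, 0.056, 0.121 and 0.0834, Benjamini-Hochberg). Without ET replicate 2 those of Plk1 and Cdc20 ended (edgeR adjusted p = 0.0756 and 0.111, Benjamini-Hochberg). Without M replicate 1 those of Bub1b, Plk1, Cdc25c, Cdc20 and Kif22 ended (edgeR adjusted p = 0.0631, 0.0724, 0.0594, 0.121 and 0.0906, Benjamini-Hochberg). Without M replicate 2 those of Cdc20 and Kif22 ended (edgeR adjusted p = 0.108 and 0.0807, Benjamini-Hochberg), and without M replicate 3 those of Bub1b, Plk1, Cdc20 and Kif22 (edgeR adjusted p = 0.0634, 0.0604, 0.0671 and 0.0566, Benjamini-Hochberg). Without Normal replicate 1 that of Cdc20 ended (edgeR adjusted p = 0.0505, Benjamini-Hochberg). Settings other than a left-out library ended calls too. Without a filter those of Cdc20 and Kif22 ended (edgeR adjusted p = 0.0949 and 0.0832, Benjamini-Hochberg), as they did in a fit of only the 6 libraries of ET and M (edgeR adjusted p = 0.053 and 0.0539, Benjamini-Hochberg). With edgeR's own count filter that of Cdc20 ended (edgeR adjusted p = 0.0579, Benjamini-Hochberg), so that Cdc20 was called in 9 of the 20 alternatives in all.

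**Figure D3:**
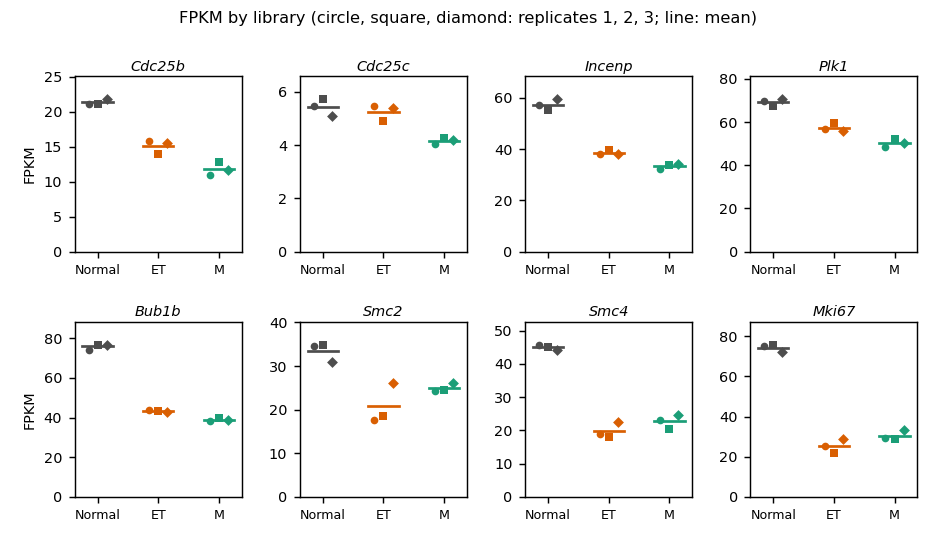
FPKM of 8 mitotic genes in each library (circle, square and diamond for replicates 1, 2 and 3) with group means as lines, on axes that start at 0. In Cdc25b, Cdc25c, Incenp, Plk1 and Bub1b the M libraries lie below the ET libraries. In Smc4 and Mki67 ET replicate 3 lies among the M libraries, and in Smc2 just above them.

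Leaving out ET replicate 3 changed these counts most. Smc2 had 34.7, 34.9 and 30.9 FPKM in the Normal libraries, 17.7, 18.4 and 26.2 in ET and 24.4, 24.5 and 26.2 in M, so that ET replicates 1 and 2 stood below M and ET replicate 3 just above the highest M value. In 28 of the 52 genes ET replicate 3 lay nearer to the mean of M than to that of ET replicates 1 and 2. This was not counted over all tested genes. Without ET replicate 3, 13 genes were lower and 11 higher in M, where 6.13% and 9.72% of all tested genes were. The 11 included Smc2 (log2 change 0.48), Mki67 (0.38), Kif18a (0.37), Smc4 (0.32), Cenpe (0.31), Kif20b (0.31) and Cenpf (0.29), with Hmmr, Ncapg, Bub1 and Top2a at 0.16 to 0.22. The 13 were the same 7 genes with Cdk1, Aurka, Cdca3, Cdca8, Kif20a and Ncapd2. The lower count was 3 without ET replicate 1, 6 without ET replicate 2, 2 without M replicate 1, 5 without M replicate 2 and 3 without M replicate 3, and none was higher without any of these 5 libraries. Of all tested genes 2.46, 2.12, 2.32, 2.71 and 2.14% were lower in that order, where 4.12% were with all libraries. The shares of all tested genes that were higher were 2.3, 2.53, 2.54, 3.19 and 2.51%.

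The difference between M and ET moved with base composition. Across the 52 genes, the log2 change of M against ET and the GC content of the longest coding transcript had a Spearman rho of -0.775, and across 11523 tested genes -0.332. Genes are not independent replicates, and these points share the same 6 libraries. Of the 26 genes above the median GC of 46.4%, 3 had a positive change, and of the 26 at or below it 15 had. The 7 called genes had 47.8 to 56.0% GC (median 54.2%), and the other 45 a median of 46.0%. Without ET replicate 3 the 11 higher genes had 38.3 to 46.6% GC and a median length of 5221 bases, and the 13 lower genes 47.8 to 56.0% GC and 2199 bases.

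Single libraries of one group also varied with GC. Within ET, the deviation of a library from its group mean and GC had a rho of 0.60, 0.50 and -0.76 for replicates 1 to 3 over the 52 genes, within M -0.36, 0.70 and -0.24, and within Normal -0.30, -0.47 and 0.63. With trends on GC content and length removed per library, rho over the 52 genes was -0.40 and 12 genes were lower in M, 6 of them among the 7, with Cdc20 no longer called (edgeR adjusted p = 0.0669, Benjamini-Hochberg). Of all tested genes 4.83% were lower and 4.22% higher in M in that fit. In the treated mean against Normal, over the same 52 genes and 9 libraries, rho with GC was 0.034 and with transcript length -0.395.

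**Figure D4:**
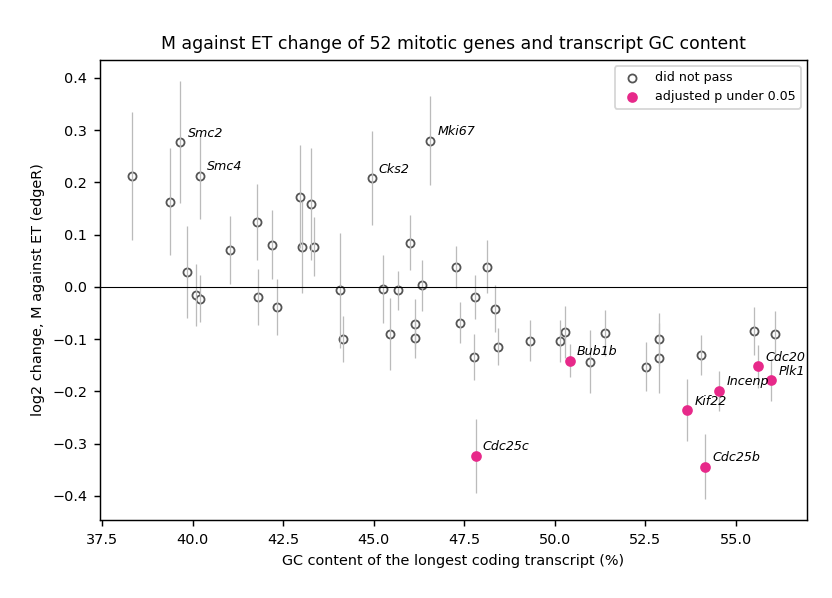
Log2 change of M against ET (edgeR, bars are SE) of the 52 mitotic genes against the GC content of the longest coding transcript. Filled points are the 7 genes with an adjusted p under 0.05, all lower in M and at or above 47.8% GC. Most positive changes lie at low GC content.

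The lists of related genes were counted in M against ET as well, where 4.12% of all tested genes were lower and 4.97% higher. Of 20 genes for the transcription of mitotic genes 2 were lower in M, Foxm1, the factor that works with MuvB at CHR elements, and E2f8, a repressive E2F. Of 40 replication genes 7 were lower in M, of 27 other spindle and division genes 3, and of 11 other CDK1 regulators 2. Of 13 cohesin genes 2 were higher, and of 16 APC/C genes 1 was. Of 11 CDK inhibitors and growth arrest genes Btg2 was higher (log2 change 0.39, edgeR adjusted p = 0.000643, Benjamini-Hochberg) and Cdkn2d, for the CDK inhibitor p19, lower (-0.22, edgeR adjusted p = 0.0418, Benjamini-Hochberg). Of 32 other kinetochore and checkpoint genes none was called by edgeR, with 3 higher and 3 lower at an unadjusted p under 0.05 and 1 higher and 1 lower called by DESeq2. Of the 3 condensin II genes none was called by edgeR or DESeq2 or had an unadjusted edgeR p under 0.05. For the APC/C list this count lay near the share over all tested genes. Foxm1, E2f8, Btg2 and Cdkn2d were named after their values had been seen.

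Reads of neighbouring genes could enter some of these values. Exons of Kif20a overlap those of Cdc23 on the opposite strand over 29.3% of their length, those of Ube2c overlap Tnnc2 over 22.8%, of Kif4 Pdzd11 over 15.1%, of Ncapg Lcorl over 13.4%, of Ccna2 Exosc9 over 12.5% and of Prc1 Rccd1 over 11.1%. Ccnb1 has a near copy, Ccnb1-ps, with 94.4% identity and at most 184 counts.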

How the data were processed

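Poly(A) RNA libraries marked for strand with dUTP were sequenced as paired reads, per the labels' protocols. Per the submitters' processing notes, cutadapt 1.9, HISAT2 2.2.1, StringTie 2.1.6, DESeq2 and edgeR were used. The deposited table holds the authors' counts, whole numbers for every gene in every library, and FPKM values per the file headers. The counting tool, its strand setting and the genome build are not given in the sources used here. Start and end of 50 of the 52 genes, and of 90.1% of all genes, equal GENCODE release 21 for mouse on GRCm38.

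Counts of genes that reached 1 FPKM in 3 or more of the 9 libraries were fitted with edgeR 4.0.16 in R 4.3.3 (quasi-likelihood test, TMM factors, 1 fit of 3 groups), with Benjamini-Hochberg adjustment over all 11536 genes at 0.05. Total counts of 55039858 to 76242718 leave each of the 52 genes at least 972 counts per library. The fit was tested on simulated data. GC content and length are of the longest coding transcript. Alternatives were limma 3.58.1 on log2 FPKM, DESeq2 1.42.0, other scalings, filters and thresholds, a replicate block, leaving out each library and, chosen after seeing the data, GC and length offsets. The 52 genes, the further gene lists and the roles were chosen with earlier results of these data known. Values per library are given for the largest rise, the largest fall and the change nearest 0 of each role, for genes against the common direction and for genes called between M and ET. From each further list at most 2 rises and 2 falls are named.

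Within groups no 2 libraries agreed to within counting noise (chi-square per gene of 9.96 to 21.2), so all 9 were counted.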

Additional observations from a re-analysis of the deposited data

How the results depend on the processing

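Over 19 or 20 alternatives per comparison no called change of a mitotic gene turned direction. In the treated mean against Normal, the number of higher genes was 1 with limma on log2(FPKM + 1) or log2(FPKM + 0.1), with total counts only, without a filter and at an adjusted p of 0.01, and 1 to 2 when single libraries were left out. Of all tested genes 31.5, 31.4, 31.3, 19.5 and 32.8% were higher in these settings, and 35.3 to 37% without single libraries. With a fold of at least 1.5, 0 of the 52 genes were higher and 20 lower. The share of all tested genes was not counted with this threshold in any comparison. The median log2 change was -0.60 with limma on log2(FPKM + 0.1), -0.61 with total counts only and -0.54 to -0.49 when single libraries were left out. In ET against Normal 1 gene was higher with either limma fit and with total counts only, and 0 higher and 19 lower with the fold threshold. Of all tested genes 30.1 and 30% were higher with the limma fits and 30.1% with total counts only. The median of the 52 genes was -0.54 and -0.57 with the limma fits and -0.58 with total counts only. In M against Normal the fold threshold left 0 higher and 24 lower, and leaving out single libraries gave 1 to 2 higher and a median of -0.54 to -0.49. Of all tested genes 33.8 to 36.5% were higher when single libraries were left out. The median of the 52 genes was -0.56 and -0.59 with the limma fits and -0.59 with total counts only. In M against ET DESeq2 gave 1 higher and 11 lower, an adjusted p of 0.01 left 2 lower, the fold threshold 0, and GC and length offsets gave 12 lower with a median of -0.075. Of all tested genes 6.9% were lower and 7.83% higher with DESeq2. The shares were 1.48% and 1.86% at an adjusted p of 0.01, and 4.83% and 4.22% with the offsets. Leaving out single libraries gave 0 to 11 higher, 2 to 13 lower and a median of -0.075 to -0.018. Of all tested genes 2.3 to 9.72% were then higher and 2.12 to 6.13% lower. The cause of these shifts was not tested. Same-numbered libraries of different groups had correlations of -0.093 to 0.055, and different-numbered ones -0.105 to 0.111. No pairing by number showed, but deviations within groups of 3 libraries cannot exclude one, and the samples were treated as unpaired. With a replicate block M against ET had 1 higher and 6 lower, Cdc20 no longer among them (edgeR adjusted p = 0.0609, Benjamini-Hochberg), and the counts of the other comparisons stayed at 2 and 45, 2 and 43, and 1 and 47. Of all tested genes 4.4% were then higher and 3.59% lower in M against ET. In the other comparisons 34.1 to 36.6% were called in each direction. Depth did not leave any of the 52 genes untested.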
